A study of Mus musculus with 29 samples.

Results

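Sterol synthesis, fatty acid synthesis and the SREBP proteins that govern both were followed across 6 groups of cultured mouse macrophages, as a list of 34 genes. The list holds 18 genes of sterol synthesis, 6 regulators and sterol carriers, and 10 genes of fatty acid synthesis. Members were measured through array probe sets annotated to exactly 1 of these genes, which gave 64 of 22690 probe sets and 32 of the 34 genes, among 12394 genes so measured in the whole series. Acat2 and Insig1 had no such probe set and were not analysed here. Acaca, the acetyl-CoA carboxylase, read between 3.72 and 4.55 on the 29 arrays, and was not tested, since a gene had to lie above log2 6.99, the median of all values, on at least 3 arrays. The 31 other genes were among the 7154 tested, and the one nearest the limit (Fads2) still lay above it on 21 of 29 arrays.

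The cells were macrophages grown for 7 days, in bags with the macrophage growth factor CSF-1, from bone marrow of C57BL/6 mice, which were wild type and 8 weeks old. All groups then kept CSF-1 at 10 ng/ml for another 24 h, alone (unstimulated, 8 arrays) or with 10 ng/ml each of IL-4 (5 arrays), IL-6 (5), IL-10 (3), IL-4 with IL-6 (5), or IL-4 with IL-10 (3). They are a culture model without tissue neighbours. The comparisons address how IL-6 and IL-10, whose receptors signal through STAT3, act alone and beside IL-4, which signals through STAT6. The labels do not say whether the arrays of a group came from separate mice or cultures, so p-values measure the spread between these arrays, which may be technical.

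Cells build cholesterol from acetyl-CoA through mevalonate, farnesyl diphosphate, squalene and lanosterol, and build fatty acids from the same acetyl-CoA through malonyl-CoA and palmitate. Both routes are driven by SREBP transcription factors, made as membrane proteins of the endoplasmic reticulum: SREBP-2 (Srebf2) acts mostly on sterol genes and SREBP-1 (Srebf1) mostly on fatty acid genes. The escort protein SCAP carries SREBP to the Golgi for cleavage when sterols are low, and INSIG proteins hold SCAP back when sterols are high. In macrophages both routes feed membranes, lipid droplets and lipid mediators.

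Values are RMA log2 intensities, so a difference of 1 is a doubling of signal, and an intensity is not compared between genes because each probe set binds with its own strength. A gene was called when its adjusted p lay under 0.05 in limma's moderated test, with Benjamini-Hochberg adjustment over all 7154 genes. In bulk RNA of this kind, fewer cells of a type and less RNA per cell cannot be told apart. The arrays appear to form 2 sets, a split read here from how the replicates were numbered and not given by the labels. One set (first) holds unstimulated replicates 1 to 5 and the groups of 5 arrays, the other (second) unstimulated replicates 6 to 8 and the groups of 3. Among unstimulated arrays the mean of Srebf2 was 0.72 higher in the second set, Fads2 0.68, Stard4 0.59 and Fdft1 0.32, and the same difference was −0.65 for Scd1 and −0.29 for Fads1. Results that rest on the set are therefore given with and without it.

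The 8 macrophage markers (Csf1r, Adgre1, Cd68 and others) lay above the limit, with mean levels between 11.78 and 13.03, lower in the groups that received IL-4. The lists for fibroblasts, hepatocytes, T or NK cells, and the granulocytes other than neutrophils had no gene above it. Of 7 measured B cell markers 5 were above it; their mean level was 6.19 to 7.95 on unstimulated arrays, 6.18 to 6.27 with IL-10 and 5.73 to 5.98 with IL-4 and IL-10, and Cd79a and Pax5 stayed under it. Of 7 neutrophil markers 5 were above it, with means of 8.32 to 9.22 over all arrays. Of 3 adipocyte markers Adipoq alone passed, and the list's mean was 3.47 to 3.82 on unstimulated arrays and 5.10 to 5.44 with either combination. Of 5 dendritic cell markers Itgax and Cd209a passed, with list means of 6.09 to 6.45 unstimulated and 7.22 to 7.44 with IL-4 and IL-6. For Actb, the 3' control probe set exceeded the 5' one, on the log2 scale, by 0.32 ± 0.0089 (SD, n = 5) on unstimulated arrays of the first set and 0.25 ± 0.019 (n = 5) with IL-6. In the second set it was 0.44 ± 0.070 (n = 3) on unstimulated arrays, 0.34 ± 0.028 (n = 3) with IL-10 and 0.42 ± 0.036 (n = 3) with IL-4 and IL-10. The part of these values in the results below was not tested.

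The promoters of the list are shown first, because sterol genes are known to be read through SREBP sites that lie next to boxes for the factors NF-Y and Sp1. RefSeq promoter sequences (GRCm38.p6) were found for 27 of the 34 genes, and the 250 bases before the start site were searched on both strands. Where a gene had several listed start sites, it was counted as matching if any of them matched. The NF-Y box CCAAT was present in 14 of 15 sterol genes, 4 of 5 regulator genes and 3 of 7 fatty acid genes, against 37.5% of all 27025 genes with a promoter sequence. The GC box GGGCGG, the Sp1 letters, was present in 14 of 15, 5 of 5 and 3 of 7, against 35.4%. The E-box CACGTG was present in 3 of 15, 2 of 5 and 1 of 7, against 6.86%. The SREBP letters TCACNCCAC were found in 1 gene of the list, Hmgcs1 (1.22% of all genes with a promoter sequence). No letters of one motif contain another, and a match is a description of the sequence, not a bound site.

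Stretches just before the start site of 5 sterol genes and of Fasn are given 5′ to 3′ on the gene's own strand, to show how the boxes are spaced in genes that rise together below. Capitals mark CCAAT, or ATTGG where it lies on the other strand, and in Hmgcs1 also the SREBP letters.
Hmgcs1 (chr13:119690161-119690350, plus strand): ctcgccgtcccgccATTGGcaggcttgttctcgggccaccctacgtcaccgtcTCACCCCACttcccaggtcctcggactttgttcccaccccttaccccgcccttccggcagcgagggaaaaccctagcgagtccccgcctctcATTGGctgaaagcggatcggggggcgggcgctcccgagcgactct
Mvk (chr5:114444089-114444268, plus strand): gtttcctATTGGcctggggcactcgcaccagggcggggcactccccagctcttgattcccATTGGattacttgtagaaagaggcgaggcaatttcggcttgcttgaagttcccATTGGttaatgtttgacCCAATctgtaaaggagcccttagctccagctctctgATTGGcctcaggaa
Mvd (chr8:122443423-122443532, minus strand): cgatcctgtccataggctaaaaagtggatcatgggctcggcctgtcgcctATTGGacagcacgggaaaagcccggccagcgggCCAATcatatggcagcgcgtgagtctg
Idi1 (chr13:8885496-8885605, plus strand): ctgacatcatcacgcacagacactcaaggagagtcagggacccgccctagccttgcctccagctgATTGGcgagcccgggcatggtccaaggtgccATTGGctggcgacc
Lss (chr10:76531495-76531604, plus strand): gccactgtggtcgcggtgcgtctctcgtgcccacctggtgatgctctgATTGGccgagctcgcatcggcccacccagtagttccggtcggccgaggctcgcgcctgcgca
Fasn (chr11:120824548-120824657, minus strand): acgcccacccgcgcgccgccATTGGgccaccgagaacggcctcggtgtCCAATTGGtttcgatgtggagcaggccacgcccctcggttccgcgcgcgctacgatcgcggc
The stretch of Mvk holds 5 NF-Y boxes, that of Fasn 3 (of which 2 overlap on opposite strands), those of Hmgcs1, Mvd and Idi1 2 each and that of Lss 1.

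Sterol synthesis genes were higher in every group given IL-6 or IL-10. All 17 tested rose with IL-6 (16.1% of all genes tested rose), with IL-10 (18.3%), with IL-4 and IL-6 (35%) and with IL-4 and IL-10 (38.1%). Their median log2 difference from unstimulated was 0.46, 0.49, 0.67 and 0.85 in that order, where the median over all genes tested lay between −0.031 and 0.018. With IL-4 alone 9 of the 17 rose and 1 fell, where 27.6% of all genes rose and 31.9% fell, and the sterol median was 0.12. The groups of arrays did not overlap for 14 of the 17 with IL-6 (21% of all genes), 16 with IL-10 (22.2%), 16 with IL-4 and IL-6 (51.2%), all 17 with IL-4 and IL-10 (56.3%) and 5 with IL-4 (35%).

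Fatty acid genes did not all move one way. Of 9 tested, 6 rose and 1 fell with IL-4, 6 rose with IL-6, 6 rose and 2 fell with IL-10 (19.5% of all genes fell), 6 rose and 1 fell with IL-4 and IL-6 (38.8% fell), and 7 rose and 1 fell with IL-4 and IL-10 (34% fell). The palmitate synthase Fasn, the stearoyl-CoA desaturases Scd1 and Scd2 and the desaturase Fads2 had log2 differences above 1 in at least 1 group. The member that fell was Fads1, joined by Elovl5 with IL-10. Within the second set alone 5 rose and 1 (Fads1) fell with IL-10, where 19.5% of all genes were called. Of the 5 regulators tested, 1 rose and 1 fell with IL-4, 2 rose and 1 fell with IL-6 (23.1% fell), 3 rose with IL-10, and 4 rose and 1 fell with each combination; the member that fell was Scap in each case.

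**Figure D1:**
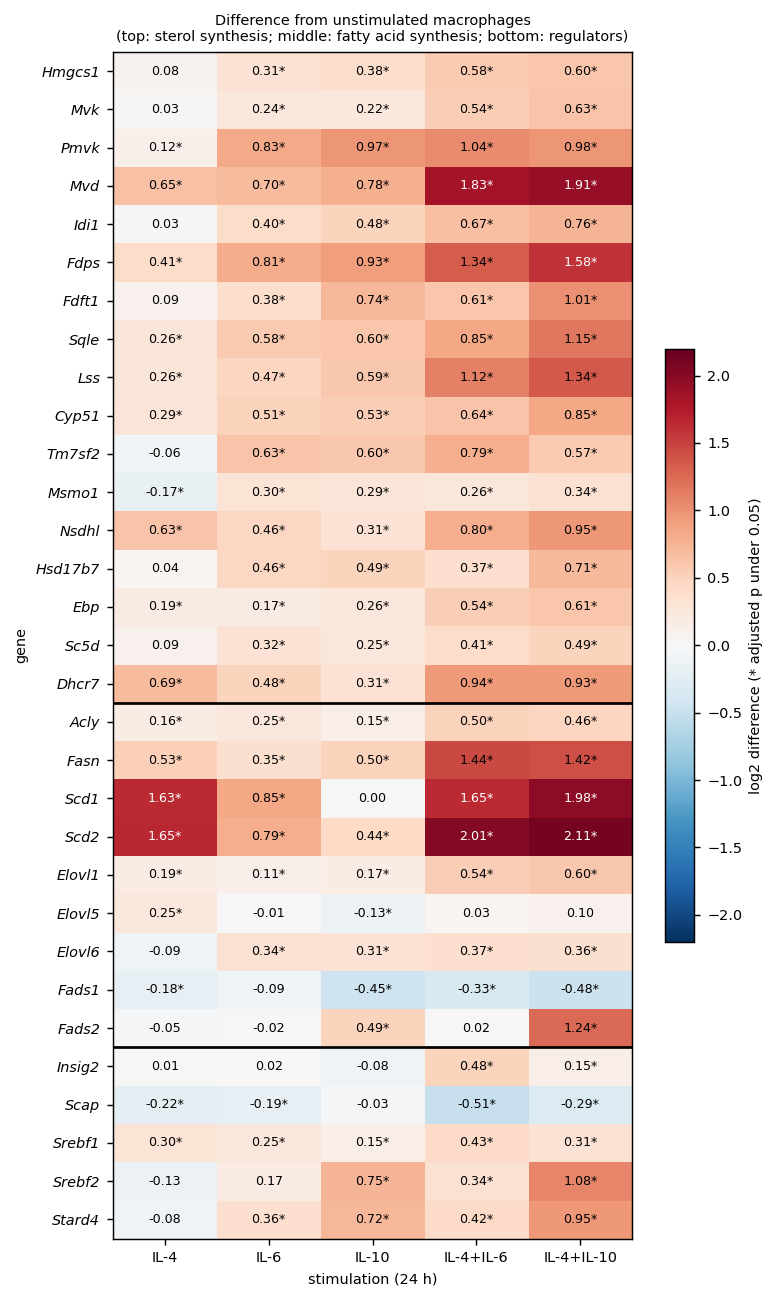
Log2 difference from unstimulated macrophages (colour and number, RMA log2 scale; asterisk, adjusted p under 0.05) for the 31 genes tested, with sterol synthesis at the top, fatty acid synthesis in the middle and regulators at the bottom. The sterol block is above 0 in the 4 columns with IL-6 or IL-10, from 0.17 (Ebp with IL-6) to 1.91 (Mvd with IL-4 and IL-10).

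The first committed steps make mevalonate and turn it into farnesyl diphosphate. Hmgcs1, the HMG-CoA synthase at the head of the route, differed from unstimulated by 0.31 ± 0.083 (SE) with IL-6, 0.38 ± 0.099 with IL-10, 0.58 ± 0.083 with IL-4 and IL-6 and 0.60 ± 0.099 with IL-4 and IL-10, and by 0.077 ± 0.083 with IL-4, where it was not called (adjusted p = 0.441). Mevalonate kinase, Mvk, rose by 0.24 ± 0.058 with IL-6, 0.22 ± 0.069 with IL-10, 0.54 ± 0.058 and 0.63 ± 0.069 with the combinations, and read 0.026 ± 0.058 with IL-4. Within the second set alone IL-10 gave 0.29 for Hmgcs1 (adjusted p = 0.0799) and 0.19 for Mvk (0.135), neither called, and with the replicate number within the set as a block Mvk had an adjusted p of 0.0722.

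Phosphomevalonate kinase, Pmvk, was high with IL-6 or IL-10 whether or not IL-4 was present. Its log2 intensity was 8.53 at the lowest, 8.58 at the median and 8.70 at the highest on unstimulated arrays, 8.73, 8.57, 8.84, 8.65 and 8.75 with IL-4, and 9.57, 9.47, 9.41, 9.34 and 9.30 with IL-6. It was 9.44, 9.65 and 9.58 with IL-10, 9.74, 9.71, 9.63, 9.60 and 9.47 with IL-4 and IL-6, and 9.54, 9.65 and 9.51 with IL-4 and IL-10. Every array with IL-6 or IL-10 lay above every array without, and the IL-4 arrays overlapped the unstimulated ones. The rise was 0.83 ± 0.051 with IL-6 (adjusted p = 2.12e-13), a fold of 1.78, and 0.97 ± 0.060 with IL-10 (4.3e-13). Adding IL-4 to IL-10 changed Pmvk by 0.011 ± 0.073 (adjusted p = 0.909), and IL-4 alone by 0.12 ± 0.051 (0.0451), a call that 9 of the 13 fits leaving out 1 array lost.

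Mvd, the decarboxylase that makes isopentenyl diphosphate, showed the widest range of group means among the sterol genes. Its log2 intensity was 7.46 at the lowest, 7.64 at the median and 7.98 at the highest on unstimulated arrays, 8.43, 8.26, 8.39, 8.28 and 8.24 with IL-4, and 8.43, 8.34, 8.42, 8.24 and 8.41 with IL-6. It was 8.41, 8.56 and 8.39 with IL-10, 9.50, 9.59, 9.54, 9.51 and 9.38 with IL-4 and IL-6, and 9.50, 9.68 and 9.59 with IL-4 and IL-10. The single cytokines formed one tier above all unstimulated arrays, and both combinations a second tier above all single-cytokine arrays. The single cytokines raised it by 0.65 ± 0.060 with IL-4 (adjusted p = 4.43e-10), 0.70 ± 0.060 with IL-6 (2.6e-10) and 0.78 ± 0.072 with IL-10 (9.64e-10). The combinations raised it by 1.83 ± 0.060 (3.55-fold, adjusted p = 1.54e-20) and 1.91 ± 0.072 (3.77-fold, 7.36e-19). Its second probe set gave 1.73 and 1.81 for the combinations.

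Idi1, which isomerises isopentenyl diphosphate, rose by 0.40 ± 0.063 with IL-6, 0.48 ± 0.075 with IL-10, 0.67 ± 0.063 and 0.76 ± 0.075 with the combinations, and read 0.030 ± 0.063 with IL-4. Farnesyl diphosphate synthase, Fdps, read 9.64 at the lowest, 10.00 at the median and 10.39 at the highest on unstimulated arrays, 10.42, 10.35, 10.61, 10.31 and 10.49 with IL-4, and 10.79, 10.68, 10.90, 10.79 and 11.00 with IL-6. It read 10.99, 10.95 and 10.91 with IL-10, 11.50, 11.34, 11.45, 11.25 and 11.26 with IL-4 and IL-6, and 11.55, 11.66 and 11.62 with IL-4 and IL-10. Here the groups stood in steps: the IL-4 arrays overlapped the highest unstimulated array, IL-6 and IL-10 arrays lay above both, and the combinations lay above all others. The rises were 0.41 ± 0.080 (adjusted p = 7.63e-05), 0.81 ± 0.080 (3.56e-09), 0.93 ± 0.095 (8.38e-09), 1.34 ± 0.080 (1.4e-14) and 1.58 ± 0.095 (2.97e-14) in the same order.

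**Figure D2:**
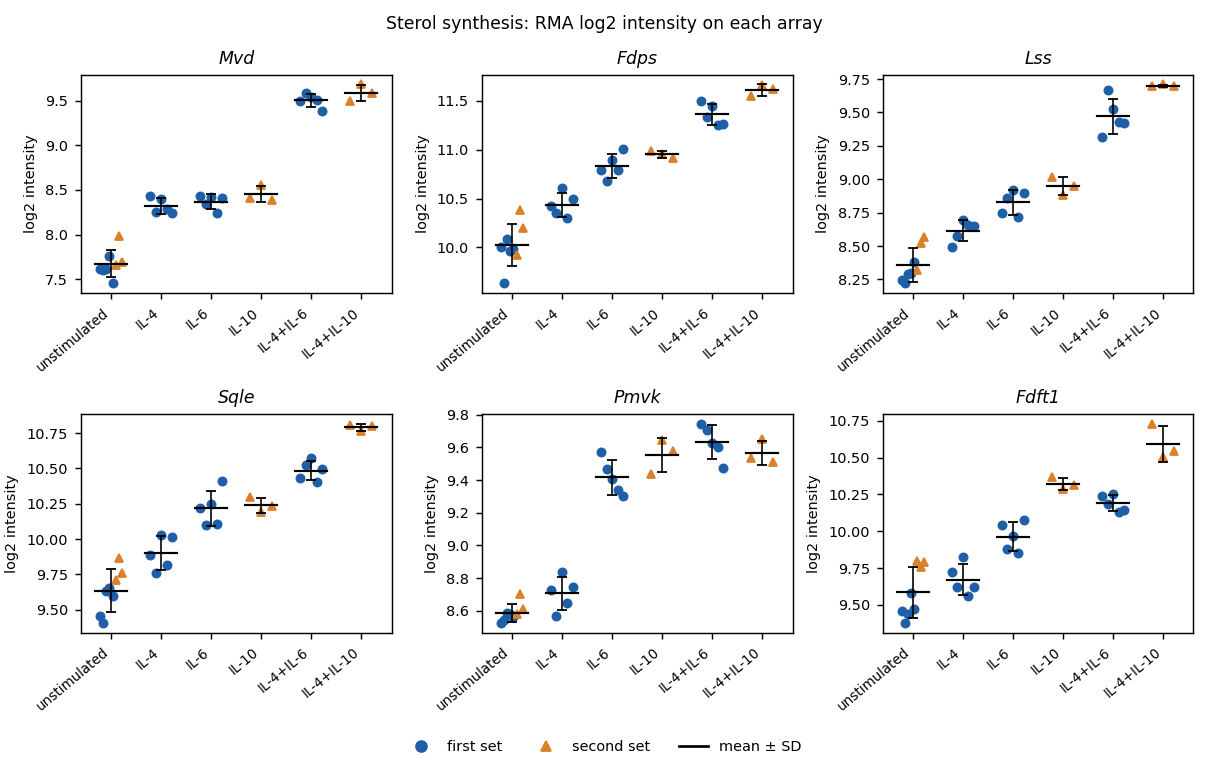
RMA log2 intensity of 6 sterol synthesis genes on each of the 29 arrays, by group (circles, first set of arrays; triangles, second set; bars, mean ± SD). Mvd stands near 8.3 to 8.5 with each single cytokine and near 9.5 with both combinations, and Pmvk is high wherever IL-6 or IL-10 was given.

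The later steps join farnesyl units to squalene, close the rings and trim lanosterol to cholesterol. Squalene synthase, Fdft1, read 9.38 at the lowest, 9.53 at the median and 9.80 at the highest on unstimulated arrays, 9.73, 9.62, 9.83, 9.56 and 9.62 with IL-4, and 10.04, 9.88, 9.97, 9.85 and 10.08 with IL-6. It read 10.37, 10.28 and 10.31 with IL-10, 10.24, 10.19, 10.25, 10.13 and 10.14 with IL-4 and IL-6, and 10.73, 10.50 and 10.54 with IL-4 and IL-10. Of the unstimulated arrays, the 3 highest were replicates 6 to 8, so the contrast with IL-10 depends on the set: 0.74 ± 0.079 over all arrays (adjusted p = 1.69e-08) and 0.54 within the second set (0.000226). With IL-6 the rise was 0.38 ± 0.066 (adjusted p = 4.06e-05). With IL-4 it was 0.087 ± 0.066 and not called (adjusted p = 0.271), and 0.21 and called with the replicate block within the set (0.000557). Another Fdft1 probe set gave 0.47 with IL-10 and 0.36 with IL-6 over all arrays. The size of the IL-10 rise, and its distance from the IL-6 rise, thus also depended on the probe set.

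Squalene epoxidase, Sqle, makes the epoxide that is cyclised next and is a known control point of the route. Its intensity was 9.41 at the lowest, 9.64 at the median and 9.86 at the highest on unstimulated arrays, 9.88, 9.76, 10.03, 9.82 and 10.01 with IL-4, and 10.22, 10.10, 10.25, 10.11 and 10.41 with IL-6. It was 10.30, 10.19 and 10.23 with IL-10, 10.44, 10.52, 10.57, 10.40 and 10.49 with IL-4 and IL-6, and 10.80, 10.76 and 10.80 with IL-4 and IL-10. The IL-4 and IL-10 arrays were the highest and overlapped no other group, and the IL-6 arrays overlapped neither unstimulated nor IL-4 and IL-10 arrays. Sqle rose by 0.26 ± 0.063 with IL-4 (adjusted p = 0.000731), 0.58 ± 0.063 with IL-6 (1.88e-08), 0.60 ± 0.075 with IL-10 (2.31e-07), 0.85 ± 0.063 with IL-4 and IL-6 (1.45e-12) and 1.15 ± 0.075 with IL-4 and IL-10 (1.45e-13).

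Lanosterol synthase, Lss, closes the rings. Its intensity was 8.22 at the lowest, 8.31 at the median and 8.57 at the highest on unstimulated arrays, 8.50, 8.57, 8.70, 8.66 and 8.65 with IL-4, and 8.75, 8.86, 8.92, 8.71 and 8.90 with IL-6. It was 9.02, 8.88 and 8.95 with IL-10, 9.31, 9.67, 9.53, 9.43 and 9.42 with IL-4 and IL-6, and 9.70, 9.71 and 9.70 with IL-4 and IL-10. Combination arrays lay above all others. The rise was 1.12 ± 0.058 with IL-4 and IL-6 (2.17-fold, adjusted p = 5.13e-16) and 1.34 ± 0.069 with IL-4 and IL-10 (2.54-fold, 8.45e-16), against 0.26 ± 0.058, 0.47 ± 0.058 and 0.59 ± 0.069 with IL-4, IL-6 and IL-10. A second Lss probe set gave −0.032, 0.57, 0.67, 0.48 and 0.90 for the single cytokines IL-4, IL-6 and IL-10 and then the combinations with IL-6 and with IL-10, so the probe sets differed on IL-4. The names of the probe sets used for Mvd, Lss, Fdft1, Elovl1 and Elovl5 carry Affymetrix marks for probes that can match further transcripts.

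The remaining steps of demethylation, reduction and isomerisation were carried by 8 further genes. The lanosterol demethylase Cyp51 rose by 0.29 ± 0.051 with IL-4, 0.51 ± 0.051 with IL-6, 0.53 ± 0.060 with IL-10, 0.64 ± 0.051 and 0.85 ± 0.060 with the combinations. The sterol reductase Tm7sf2 rose by 0.63 ± 0.056 with IL-6 and 0.60 ± 0.066 with IL-10, and with IL-4 it read −0.062 ± 0.056 (adjusted p = 0.35). Hsd17b7, Ebp and Sc5d, a ketoreductase, an isomerase and a desaturase, rose by 0.46, 0.17 and 0.32 with IL-6 and by 0.49, 0.26 and 0.25 with IL-10. With the combinations the values for IL-6 and IL-10 were 0.79 and 0.57 for Tm7sf2, 0.37 and 0.71 for Hsd17b7, 0.54 and 0.61 for Ebp, and 0.41 and 0.49 for Sc5d, and all 8 were called. Within the second set Ebp was not called with IL-10 (0.24, adjusted p = 0.0661). With IL-4 Ebp rose by 0.19 ± 0.042, and Sc5d, at 0.095, was called with the replicate block within the set (0.0158).

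Msmo1, the sterol methyl oxidase, was the sterol gene that fell with IL-4. It read 11.38 at the lowest, 11.49 at the median and 11.62 at the highest on unstimulated arrays, 11.31, 11.30, 11.38, 11.30 and 11.34 with IL-4, and 11.72, 11.69, 11.86, 11.78 and 11.91 with IL-6. It read 11.70, 11.77 and 11.88 with IL-10, 11.74, 11.80, 11.81, 11.72 and 11.66 with IL-4 and IL-6, and 11.81, 11.76 and 11.93 with IL-4 and IL-10. All IL-4 arrays lay below the unstimulated ones, the nearest by less than the last digit shown, and IL-6 and IL-10 arrays lay above the highest. The differences were −0.17 ± 0.045 with IL-4 (adjusted p = 0.00224) and 0.30 ± 0.045 with IL-6 (4.78e-06); with IL-10 it was 0.29 ± 0.054 (9.01e-05), and 0.20 and not called within the second set (0.0631).

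Nsdhl, the sterol dehydrogenase, and Dhcr7, which catalyses the last reduction to cholesterol, were called with each single cytokine. Nsdhl rose by 0.63 ± 0.039 with IL-4 (adjusted p = 1.05e-13), 0.46 ± 0.039 with IL-6 and 0.31 ± 0.047 with IL-10. Dhcr7 rose by 0.69 ± 0.057 with IL-4 (3.42e-11), 0.48 ± 0.057 with IL-6 and 0.31 ± 0.067 with IL-10. For both genes the groups of arrays with each single cytokine did not overlap the unstimulated arrays. IL-4 and IL-6 together gave 0.80 ± 0.039 for Nsdhl and 0.94 ± 0.057 for Dhcr7, and IL-4 and IL-10 together 0.95 ± 0.047 and 0.93 ± 0.067.

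In the first set alone 10 of 17 sterol genes rose and 1 fell with IL-4, at a median of 0.20 against 0.12 over all arrays, where 60.6% of all genes were called. The count with IL-6 was again 17 of 17 in the first set alone, with a median of 0.50, where 37.1% of all genes were called. Within the second set alone 13 of 17 rose with IL-10 at a median of 0.37, where 19.5% of all genes were called, and the 4 not called were Hmgcs1, Mvk, Msmo1 and Ebp. All 17 rose with IL-4 and IL-10 in the second set alone (median 0.81), where 59.7% of all genes were called. Array by array, the median over sterol members, each less its unstimulated mean, ran from −0.12 to 0.079 on unstimulated arrays, 0.12 to 0.24 with IL-4, 0.37 to 0.57 with IL-6, 0.41 to 0.56 with IL-10, 0.63 to 0.80 with IL-4 and IL-6 and 0.74 to 0.91 with IL-4 and IL-10. The same median over all genes tested stayed between −0.054 and 0.057 on every array.

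Adding IL-6 or IL-10 to IL-4 raised every sterol gene tested, and adding IL-4 to IL-6 or IL-10 raised most. With IL-6 added to IL-4, 17 of 17 rose (29.4% of all genes rose), by 0.17 for Nsdhl to 1.18 for Mvd, with a median of 0.51. With IL-10 added to IL-4, 17 of 17 rose (32.7%), by 0.24 for Dhcr7 to 1.27 for Mvd, with a median of 0.64; this pair spans both sets of arrays, and with a term for the set 17 of 17 rose, with a median of 0.54, where 33.1% of all genes were called. With IL-4 added to IL-6, 14 of 17 rose (34%) at a median of 0.27, and Msmo1, Hsd17b7 and Sc5d were not called. With IL-4 added to IL-10, 12 of 17 rose (31.8%) at a median of 0.32, and Hmgcs1, Pmvk, Tm7sf2, Msmo1 and Hsd17b7 were not called. With the replicate block within the set, Sc5d in the first of these and Hmgcs1 in the second were also called (0.086 and 0.22, adjusted p = 0.0333 and 0.0469).

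The interaction asks whether the combination differs from the sum of both single-cytokine differences on the log2 scale; 0 means that they add. For IL-4 with IL-6, 6 of 17 sterol genes were above additive and 2 below, where 21.4% of all genes tested were above and 18.6% below. Those above were Mvd (0.48 ± 0.090, adjusted p = 8.77e-05), Lss (0.39 ± 0.087, 0.000717), Mvk (0.27 ± 0.086, 0.0138), Idi1 (0.24 ± 0.095, 0.0459), Tm7sf2 (0.22 ± 0.083, 0.0322) and Ebp (0.18 ± 0.063, 0.0261). Those below were Nsdhl (−0.30 ± 0.059, 0.00019) and Dhcr7 (−0.23 ± 0.085, 0.0291). In the first set alone 4 were above additive and 2 below (41.1% of all genes called), at a median of 0.067 against 0.12 over all arrays. There Idi1 (0.17, 0.154) and Tm7sf2 (0.21, 0.0613) were not called. With a term for the set 4 were above and 1 below (38.6% called), and Dhcr7 too was not called (−0.22, 0.0563). The Lss value rests on 1 of its probe sets, since the second gave −0.062. Cyp51 was −0.16 and not called (adjusted p = 0.0905), and below additive with the replicate block within the set (−0.18, 0.0274).

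For IL-4 with IL-10, 4 of 17 sterol genes were above additive and none below, where 15.5% of all genes were above and 10.1% below. This comparison spans both sets. They were Lss (0.49 ± 0.10, adjusted p = 0.000653), Mvd (0.49 ± 0.11, 0.00113), Mvk (0.38 ± 0.10, 0.00665) and Msmo1 (0.22 ± 0.079, 0.043). With a term for the set the values were 0.42 (0.00135), 0.42 (0.00269), 0.36 (0.0131) and, not called, 0.16 (0.103). Sqle was at 0.29 ± 0.11 (adjusted p = 0.0575), and Ebp at 0.17 (0.0869) and called with the replicate block within the set (0.02). With IL-4 and IL-6 the call of Idi1 was lost in 14 of 23 fits that left out 1 array, and with IL-4 and IL-10 that of Msmo1 in 11 of 19. For Mvd the combined signal was 1.4 times the additive one with either cytokine.

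**Figure D3:**
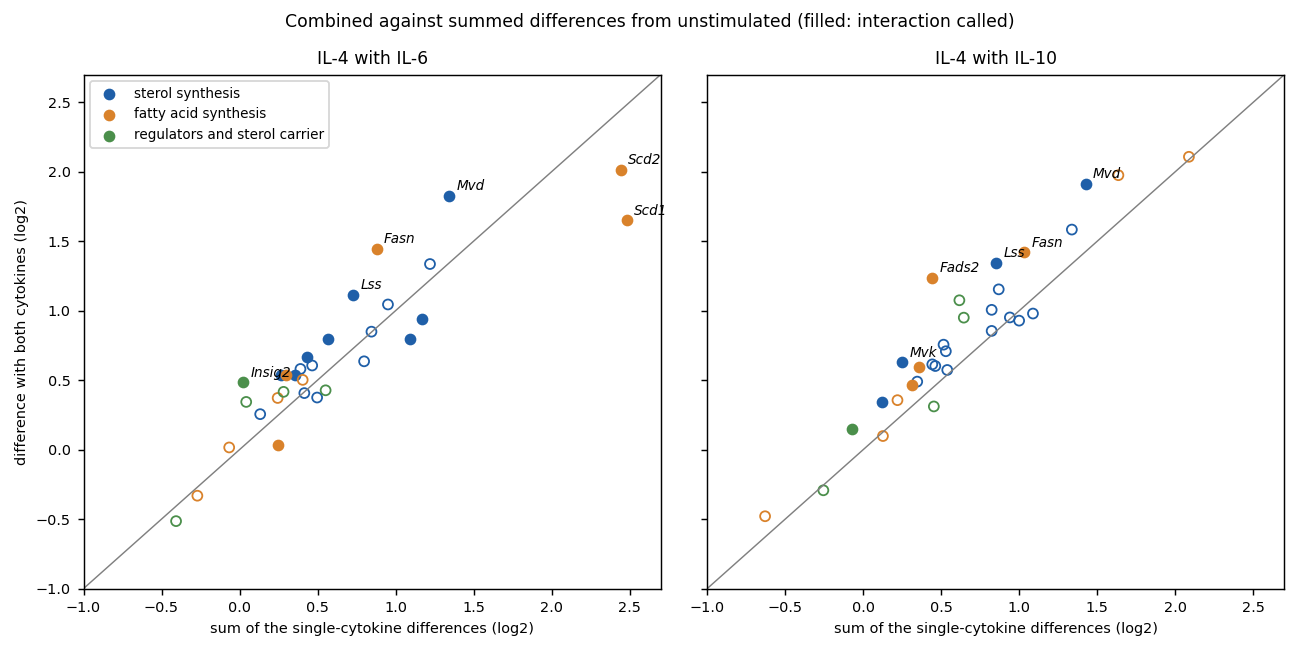
Difference from unstimulated with both cytokines (vertical axis, log2) against the sum of the differences with each alone (horizontal axis, log2), one point per gene tested (blue sterol synthesis, orange fatty acid synthesis, green regulators); the line marks additivity and filled points have a called interaction. Mvd and Fasn lie above the line in both panels, and Scd1 and Scd2 lie below it with IL-4 and IL-6.

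Of the fatty acid genes, Acly, the ATP citrate lyase that supplies cytosolic acetyl-CoA to both routes, rose in all 5 stimulated groups, by 0.16 ± 0.032 with IL-4, 0.25 ± 0.032 with IL-6, 0.15 ± 0.038 with IL-10, 0.50 ± 0.032 with IL-4 and IL-6 and 0.46 ± 0.038 with IL-4 and IL-10. Another Acly probe set gave 0.045 with IL-4 and 0.15 with IL-6, and a further one gave 0.28 and 0.30. The size of these Acly rises thus depended on the probe set. Fatty acid synthase, Fasn, makes palmitate. Its intensity was 8.55 at the lowest, 8.70 at the median and 8.86 at the highest on unstimulated arrays, 9.25, 9.04, 9.29, 9.18 and 9.36 with IL-4, and 8.94, 8.99, 9.19, 8.96 and 9.13 with IL-6. It was 9.32, 9.19 and 9.07 with IL-10, 10.10, 10.15, 10.19, 10.14 and 10.10 with IL-4 and IL-6, and 10.12, 10.15 and 10.08 with IL-4 and IL-10. As for Mvd, the single cytokines formed a middle tier and the combinations a high tier, with no overlap between tiers. Fasn rose by 0.53 ± 0.055, 0.35 ± 0.055 and 0.50 ± 0.066 with IL-4, IL-6 and IL-10, and by 1.44 ± 0.055 (2.72-fold, adjusted p = 4.07e-19) and 1.42 ± 0.066 (2.68-fold, 8.02e-17) with the combinations. Its interaction was 0.57 ± 0.082 with IL-6 (adjusted p = 3.04e-06) and 0.39 ± 0.096 with IL-10 (0.00365; 0.33, 0.00866 with a term for the set). The adipocyte list, through Adipoq, was also higher with both combinations, and its part in the fatty acid values was not tested.

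Scd1 and Scd2, the desaturases that place the first double bond in stearate and palmitate, were the genes of the list with the widest range of group means. Scd2 read 10.40 at the lowest, 11.03 at the median and 11.13 at the highest on unstimulated arrays, 12.55, 12.42, 12.59, 12.60 and 12.76 with IL-4, and 11.62, 11.52, 11.78, 11.71 and 11.99 with IL-6. It read 11.61, 11.17 and 11.34 with IL-10, 12.97, 12.97, 12.99, 12.91 and 12.90 with IL-4 and IL-6, and 13.04, 13.03 and 13.05 with IL-4 and IL-10. IL-4 arrays lay above all IL-6 and IL-10 arrays, and combination arrays above all IL-4 arrays. Scd2 rose by 1.65 ± 0.093 with IL-4 (3.14-fold, adjusted p = 1.04e-14), 0.79 ± 0.093 with IL-6 (7.96e-08), 0.44 ± 0.11 with IL-10 (0.00253), 2.01 ± 0.093 with IL-4 and IL-6 (3.36e-17) and 2.11 ± 0.11 with IL-4 and IL-10 (4.31-fold, 1.38e-15). With IL-6 the combination was below additive (−0.43 ± 0.14, 0.0154), and with IL-10 the interaction was 0.020 ± 0.16 (0.945). Within the first set alone Scd2 rose by 1.57 with IL-4, 0.71 with IL-6 and 1.94 with both, again below the sum. Another Scd2 probe set gave 1.85, 0.91 and 2.42 over all arrays, also below the sum.

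Scd1 read 6.30 at the lowest, 7.13 at the median and 7.49 at the highest on unstimulated arrays, 8.72, 8.58, 8.86, 8.67 and 8.62 with IL-4, and 7.79, 7.80, 7.89, 7.89 and 8.16 with IL-6. It read 7.14, 6.96 and 7.07 with IL-10, 8.95, 8.75, 8.67, 8.68 and 8.48 with IL-4 and IL-6, and 8.98, 8.997 and 9.12 with IL-4 and IL-10. IL-4 and IL-4 with IL-6 arrays overlapped each other, and IL-10 arrays lay within the unstimulated range, whose 3 lowest arrays were replicates 6 to 8. Over all arrays the rise was 1.63 ± 0.13 with IL-4 (3.1-fold, adjusted p = 1.82e-11), 0.85 ± 0.13 with IL-6 (6.33e-06), 1.65 ± 0.13 with IL-4 and IL-6 (5.28e-12) and 1.98 ± 0.15 with IL-4 and IL-10 (3.93-fold, 7.75e-12). The unstimulated mean of Scd1 was 7.06 over all arrays, 7.30 in the first set and 6.65 in the second. Against the mean of the first set the rises with IL-4 (group mean 8.69), IL-6 (7.905) and both (8.71) were therefore smaller. Within the second set the rise with IL-4 and IL-10 was 2.38.

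With IL-10 alone Scd1 differed by 0.00 over all arrays (adjusted p = 0.992), but rose by 0.41 within the second set (0.0478) and with the replicate block within the set (0.0123). IL-6 added 0.016 to IL-4 (adjusted p = 0.93), and the interaction of IL-4 with IL-6 was −0.83 ± 0.19 over all arrays (0.00106). In the first set alone, and with a term for the set, that interaction was smaller at −0.59. IL-10 added 0.34 to IL-4 over all arrays (not called, adjusted p = 0.0817) and 0.99 with the replicate block within the set (3.03e-05). The interaction of IL-4 with IL-10 was 0.34 (not called, 0.286) and 0.58 with that block (0.00609). A second Scd1 probe set, above the limit on 5 arrays, gave 1.13 with IL-4, 0.57 with IL-6 and 1.64 with both. There the combination lay near the sum and above IL-4 alone, so the called interaction with IL-6 rests on 1 probe set. Scd1 and Scd2 are close paralogs, and how far a probe set of one also binds the other was not tested.

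**Figure D4:**
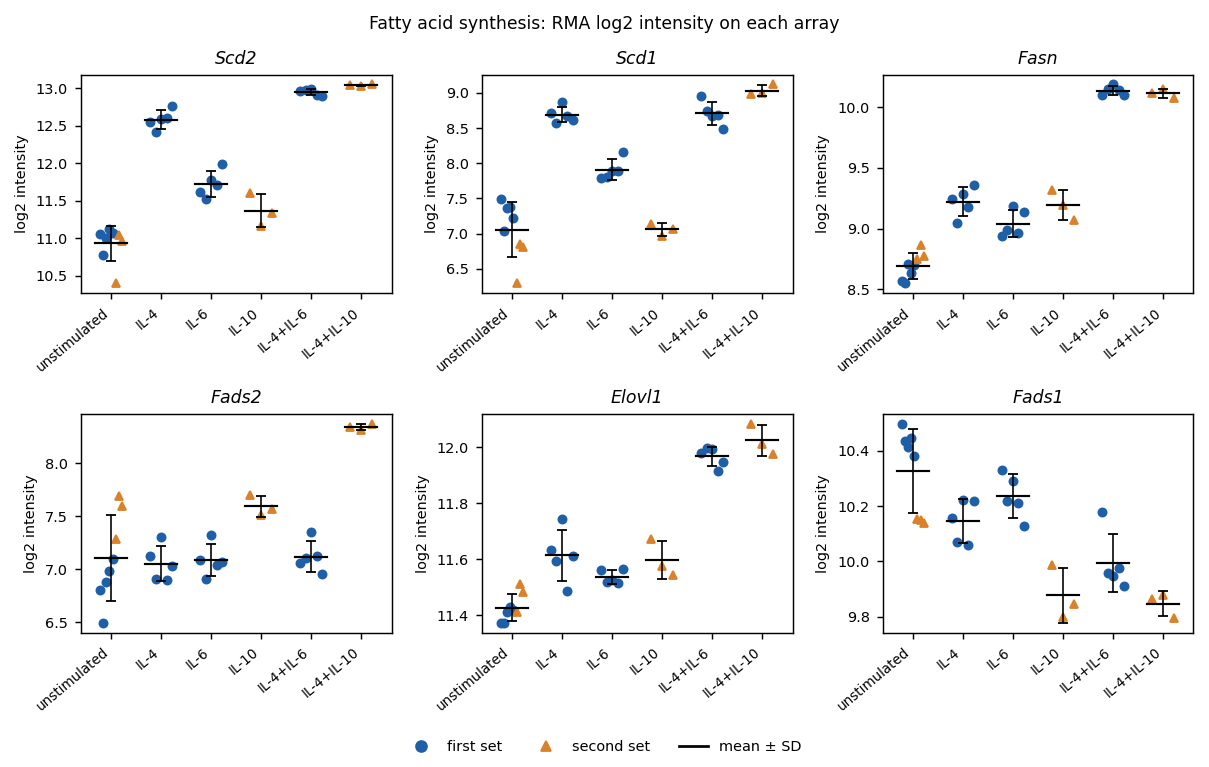
RMA log2 intensity of 6 fatty acid genes on each of the 29 arrays, by group (circles, first set; triangles, second set; bars, mean ± SD). Scd1 with IL-10 alone stays within the range of all unstimulated arrays but above the unstimulated triangles of its own set. The Scd1 arrays of both combinations lie above 8.4.

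The elongases differed among themselves. Elovl1, which extends very long chains, read 11.37 at the lowest, 11.42 at the median and 11.51 at the highest on unstimulated arrays, 11.63, 11.60, 11.74, 11.49 and 11.61 with IL-4, and 11.56, 11.52, 11.52, 11.51 and 11.57 with IL-6. It read 11.67, 11.57 and 11.54 with IL-10, 11.98, 12.00, 11.99, 11.92 and 11.95 with IL-4 and IL-6, and 12.08, 12.01 and 11.98 with IL-4 and IL-10. The combination arrays lay above all others, and the single-cytokine arrays overlapped each other. Elovl1 rose by 0.19 ± 0.035, 0.11 ± 0.035 and 0.17 ± 0.041 with the single cytokines and by 0.54 ± 0.035 (adjusted p = 6.46e-14) and 0.60 ± 0.041 (5.89e-13) with the combinations, above additive by 0.24 ± 0.052 (0.000437) and 0.24 ± 0.061 (0.00451). Within the second set alone its IL-10 difference was 0.13 and not called (0.182). Another Elovl1 probe set, without the mark for shared probes, gave 0.65 and 0.63 for the combinations. With IL-4, IL-6 and IL-10 alone it gave 0.29, 0.23 and 0.11. There the combination with IL-6 lay nearer the sum, so the size of that interaction depended on the probe set.

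Elovl6, which extends palmitate to stearate, rose with IL-6 (0.34 ± 0.062, adjusted p = 7.97e-05), IL-10 (0.31 ± 0.074, 0.00139) and both combinations (0.37 ± 0.062 and 0.36 ± 0.074), and with IL-4 it read −0.093 ± 0.062 (0.207). Elovl5, which extends polyunsaturated chains, was higher with IL-4 alone. It read 11.27 at the lowest, 11.45 at the median and 11.58 at the highest on unstimulated arrays, 11.65, 11.70, 11.73, 11.63 and 11.69 with IL-4, and 11.42, 11.41, 11.37, 11.43 and 11.46 with IL-6. It read 11.39, 11.26 and 11.25 with IL-10, 11.54, 11.43, 11.50, 11.37 and 11.46 with IL-4 and IL-6, and 11.54, 11.51 and 11.53 with IL-4 and IL-10. The IL-4 arrays lay above all others. Elovl5 rose by 0.25 ± 0.041 with IL-4 (adjusted p = 7.32e-06), and the interaction with IL-6 was −0.21 ± 0.062 (0.00774).

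Elovl5 was lower by −0.13 ± 0.049 with IL-10 over all arrays (adjusted p = 0.0444), but differed by −0.016 within the second set (0.885), where unstimulated arrays were themselves lower. With IL-4 and IL-10 it read 0.098 over all arrays (not called, 0.0759) and 0.21 and called within the second set (0.0106). IL-10 added to IL-4 changed it by −0.15 (0.0149), and by 0.021 with the replicate block within the set (0.804).

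The desaturases of polyunsaturated fatty acids, Fads1 and Fads2, are neighbours on chromosome 19 and did not move together. Fads1 read 10.14 at the lowest, 10.40 at the median and 10.50 at the highest on unstimulated arrays, 10.16, 10.07, 10.22, 10.06 and 10.22 with IL-4, and 10.33, 10.22, 10.29, 10.21 and 10.13 with IL-6. It read 9.99, 9.80 and 9.85 with IL-10, 10.18, 9.96, 9.95, 9.97 and 9.91 with IL-4 and IL-6, and 9.86, 9.88 and 9.80 with IL-4 and IL-10. The IL-10 and the IL-4 with IL-10 arrays lay below all unstimulated arrays, of which replicates 6 to 8 were the 3 lowest. Over all arrays Fads1 fell with IL-4 (−0.18 ± 0.061, adjusted p = 0.0129), IL-10 (−0.45 ± 0.072, 1.38e-05) and both combinations (−0.33 ± 0.061, 2.13e-05, and −0.48 ± 0.072, 1.43e-06). Within the first set alone the difference was −0.29 with IL-4 (4.86e-05) and −0.44 with IL-4 and IL-6 (1.04e-07). Within its own set it was −0.20 and called with IL-6 (0.00343; −0.090 and not called over all arrays), −0.27 with IL-10 (0.0113) and −0.30 with IL-4 and IL-10 (0.00188). The difference between IL-4 with IL-10 and IL-4 alone, −0.30, was −0.012 with the replicate block within the set (0.898). With that block IL-6 added to IL-4 was called at −0.15 (0.00271) and the interaction of IL-4 with IL-10 at 0.26 (0.00535).

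Fads2 was high with IL-4 and IL-10. It read 6.50 at the lowest, 7.04 at the median and 7.70 at the highest on unstimulated arrays, 7.13, 6.91, 7.31, 6.90 and 7.03 with IL-4, and 7.09, 6.91, 7.32, 7.04 and 7.07 with IL-6. It read 7.71, 7.51 and 7.57 with IL-10, 7.06, 7.11, 7.35, 7.12 and 6.95 with IL-4 and IL-6, and 8.34, 8.32 and 8.37 with IL-4 and IL-10. The 3 arrays with IL-4 and IL-10 lay above every other array, and the IL-10 arrays overlapped unstimulated replicates 6 to 8. Fads2 rose by 1.24 ± 0.16 with IL-4 and IL-10 (adjusted p = 1.04e-07), by 0.82 within the second set (4.16e-05), and its interaction was 0.80 ± 0.23 (0.0135; 0.54, 0.0147 with a term for the set). The IL-10 difference of 0.49 ± 0.16 over all arrays (0.0166) was 0.068 and not called within the second set (0.691). A second Fads2 probe set, above the limit on 4 arrays, gave 0.32 for IL-4 with IL-10 and 0.00 for IL-10. With the replicate block within the set Fads2 was also called with IL-4 (0.20, 0.0373), IL-6 (0.24, 0.026) and IL-4 with IL-6 (0.27, 0.00608), where the fit over all arrays read −0.049, −0.017 and 0.016.

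For the fatty acid class as a whole, IL-6 added to IL-4 raised 5 of 9 genes and lowered 1 (31.2% of all genes fell), and IL-10 added to IL-4 raised 6 and lowered 2 (24.6% fell). The latter pair spans both sets: 7 were higher and none lower with a term for the set (33.1% of all genes called) and with the replicate block within the set (45% called). The 2 that lost their call were Fads1 and Elovl5. IL-4 added to IL-6 raised 5 and lowered 1 (32.9% fell), and IL-4 added to IL-10 raised 7 and lowered none (28.1% fell). For IL-4 with IL-6, 2 of 9 were above additive (21.4% of all genes) and 3 below (18.6%). The count above is near the share of all genes and no result about the class. For IL-4 with IL-10, 4 of 9 were above (15.5%) and none below (10.1%). Above additive were Fasn and Elovl1 with either cytokine, and Acly (0.15 ± 0.056, adjusted p = 0.0439, lost in 11 of 19 fits that left out 1 array) and Fads2 with IL-10. The size of the Elovl1 interaction with IL-6 depended on the probe set. Below additive, with IL-6 alone, were Scd1, Scd2 and Elovl5, where the Scd1 value rests on 1 of its probe sets.

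Of the regulators, Srebf2, which encodes SREBP-2, depended on the set and on the probe set. It read 8.11 at the lowest, 8.28 at the median and 9.07 at the highest on unstimulated arrays, 8.34, 8.21, 8.55, 8.32 and 8.36 with IL-4, and 8.60, 8.70, 8.87, 8.48 and 8.66 with IL-6. It read 9.15, 9.34 and 9.22 with IL-10, 8.79, 8.78, 8.92, 8.81 and 8.84 with IL-4 and IL-6, and 9.45, 9.70 and 9.54 with IL-4 and IL-10. Unstimulated replicates 6 to 8 lay above replicates 1 to 5 and above the IL-4 arrays, and the IL-10 arrays above all unstimulated ones. Srebf2 rose by 0.75 ± 0.15 with IL-10 (adjusted p = 0.000165) and 1.08 ± 0.15 with IL-4 and IL-10 (2.4e-07) over all arrays, and by 0.30 (0.0322) and 0.63 (0.000111) within the second set. With IL-6 the difference was 0.17 and not called over all arrays (0.271), and 0.44 and called within the first set (1.03e-05). With IL-4 and IL-6 it rose by 0.34 ± 0.12 over all arrays (0.0137) and 0.61 within the first set (2.56e-08).

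With IL-4 alone Srebf2 read −0.13 over all arrays (adjusted p = 0.367) and 0.14 with the replicate block within the set (0.00937). IL-4 added to IL-10 gave 0.33 (not called, 0.11; called with that block, 2.86e-05), and IL-4 added to IL-6 gave 0.17 (not called, 0.275; called with that block, 0.00156). The interaction of IL-4 with IL-10 was 0.46 (0.116), and 0.19 with the block (0.0419). A second Srebf2 probe set gave 0.20 with IL-10 and 0.27 with IL-4 and IL-10 over all arrays, and 0.28 with IL-6.

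Srebf1, which encodes SREBP-1, moved little and in one direction. It rose by 0.30 ± 0.036 with IL-4 (adjusted p = 5.22e-08), 0.25 ± 0.036 with IL-6 (1.98e-06), 0.15 ± 0.043 with IL-10 (0.00552), 0.43 ± 0.036 with IL-4 and IL-6 (2.15e-11) and 0.31 ± 0.043 with IL-4 and IL-10 (3.18e-07). In each of the 5 groups every array lay above every unstimulated array. The transcripts of SREBP-1a and SREBP-1c were not told apart here.

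Scap, the escort of SREBP, was lower in the groups given IL-4 or IL-6. It read 9.32 at the lowest, 9.40 at the median and 9.54 at the highest on unstimulated arrays, 9.17, 9.23, 9.24, 9.12 and 9.16 with IL-4, and 9.27, 9.17, 9.22, 9.29 and 9.15 with IL-6. It read 9.36, 9.41 and 9.35 with IL-10, 8.91, 8.87, 8.90, 8.91 and 8.87 with IL-4 and IL-6, and 9.07, 9.18 and 9.10 with IL-4 and IL-10. IL-4 with IL-6 gave the lowest arrays, with no overlap with any other group, and IL-10 arrays lay within the unstimulated range. Scap fell with IL-4 (−0.22 ± 0.037, adjusted p = 1.03e-05), with IL-6 (−0.19 ± 0.037, 0.000221), with both (−0.51 ± 0.037, 8.23e-13) and with IL-4 and IL-10 (−0.29 ± 0.044, 1.41e-06). With IL-10 it read −0.034 ± 0.044 over all arrays (0.577), and −0.085 and not called within the second set. There the IL-10 arrays lay below the unstimulated ones. The interaction with IL-6 was −0.11 (0.128), called at −0.14 with the replicate block within the set (0.0276). IL-10 added to IL-4 gave −0.071, and −0.15 and called with that block (0.0366).

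Insig2, which retains SCAP in the endoplasmic reticulum, was called higher with both combinations and with no single cytokine. It read 9.02 at the lowest, 9.11 at the median and 9.22 at the highest on unstimulated arrays, 9.03, 9.14, 9.25, 9.12 and 9.09 with IL-4, and 9.14, 9.11, 9.20, 9.10 and 9.13 with IL-6. It read 9.11, 9.02 and 8.99 with IL-10, 9.68, 9.61, 9.68, 9.57 and 9.48 with IL-4 and IL-6, and 9.34, 9.32 and 9.16 with IL-4 and IL-10. All 5 arrays with IL-4 and IL-6 lay above all other arrays, and 1 of the 3 arrays with IL-4 and IL-10 overlapped the unstimulated ones. The single cytokines gave 0.006 ± 0.042, 0.017 ± 0.042 and −0.081 ± 0.049 (adjusted p = 0.91, 0.781 and 0.209). The combinations gave 0.48 ± 0.042 (3.12e-11) and 0.15 ± 0.049 (0.00799; within the second set 0.16, 0.0597, not called). The interactions were 0.46 ± 0.062 (9.06e-07) and 0.23 ± 0.073 (0.023). Its other 2 probe sets gave 0.44 and 0.52 with IL-4 and IL-6, and 0.19 and 0.31 with IL-4 and IL-10.

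Stard4, a cytosolic sterol carrier and a known SREBP target, read 8.37 at the lowest, 8.53 at the median and 9.14 at the highest on unstimulated arrays, 8.63, 8.66, 8.65, 8.57 and 8.54 with IL-4, and 9.03, 9.004, 9.05, 9.09 and 9.09 with IL-6. It read 9.59, 9.29 and 9.37 with IL-10, 9.09, 9.32, 9.12, 9.17 and 8.83 with IL-4 and IL-6, and 9.74, 9.51 and 9.67 with IL-4 and IL-10. As for Srebf2, the unstimulated arrays of the second set were the high ones, and IL-10 arrays lay above them. Stard4 rose by 0.36 ± 0.11 with IL-6 (adjusted p = 0.00781), 0.72 ± 0.13 with IL-10 (4.14e-05), 0.42 ± 0.11 with IL-4 and IL-6 (0.000994) and 0.95 ± 0.13 with IL-4 and IL-10 (1.81e-07). Within its set the rise was 0.58 with IL-6 (1.48e-07), 0.64 with IL-4 and IL-6 (7.58e-09), 0.36 with IL-10 (0.0208) and 0.58 with IL-4 and IL-10 (0.000317). With IL-4 it was −0.079 over all arrays (0.54) and 0.14 within the first set (0.0492). IL-4 added to IL-10 gave 0.23 (not called, 0.206; called with the replicate block within the set, 0.0121). A second Stard4 probe set gave 0.10 with IL-4, 0.36 with IL-6 and 0.82 with IL-10 over all arrays. It gave 0.90 with IL-4 and IL-6 and 1.23 with IL-4 and IL-10, so the size of the rise with the combinations depended on the probe set.

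**Figure D5:**
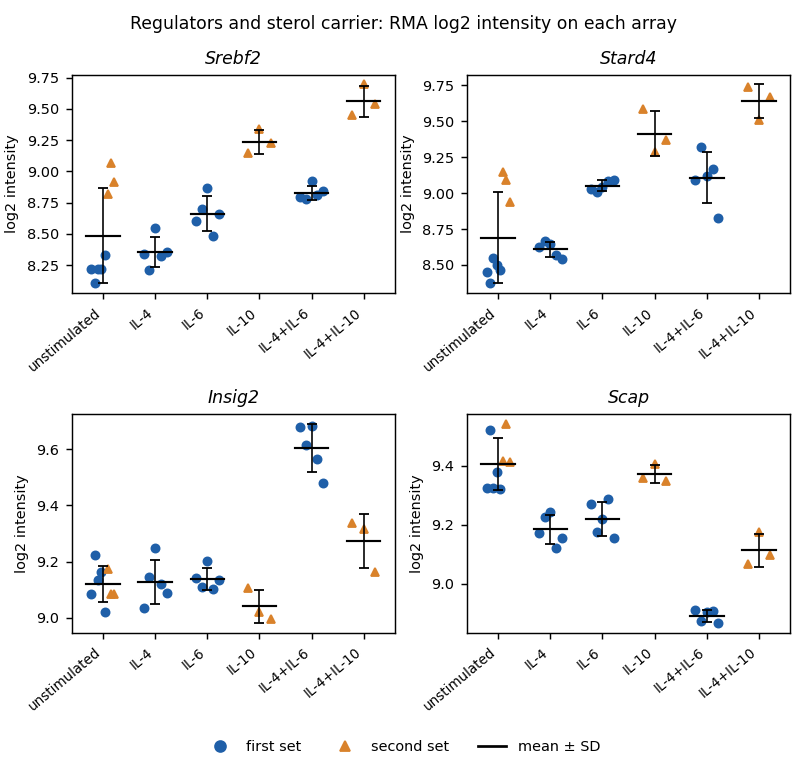
RMA log2 intensity of 3 regulators and the sterol carrier Stard4 on each of the 29 arrays, by group (circles, first set; triangles, second set; bars, mean ± SD). The triangles of the unstimulated group stand above its circles for Srebf2 and Stard4, and Insig2 stands apart with IL-4 and IL-6.

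Few members differed between IL-10 and IL-6 alone. Of 31 members 3 were higher with IL-10 (Fdft1, Scap, Srebf2; 6.26% of all genes higher) and 3 lower (Nsdhl, Scd1, Fads1; 5.62% lower). The comparison spans both sets, and each of the 6 calls was lost with a term for the set or with the replicate block within the set, where limma called 0.0978% and 0.252% of all genes and 3 members had an unadjusted p under 0.05 in each fit. Without IL-10 replicate 2 a single member was called. The differences of the 15 other sterol genes ran from −0.17 ± 0.073 for Dhcr7 to 0.14 ± 0.065 for Pmvk, and a difference that missed the threshold does not show equal levels.

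IL-4 with IL-10 against IL-4 with IL-6 also spans the sets. Over all arrays 10 of 31 members were higher with IL-10 (26.9% of all genes) and 3 lower (16%). Fads2 was higher by 1.22 ± 0.17 (adjusted p = 3.88e-06), Srebf2 by 0.73 and Stard4 by 0.53. The other sterol and regulator differences called were Fdft1 0.40, Hsd17b7 0.33, Sqle 0.30, Lss 0.23, Scap 0.22, Cyp51 0.22 and Nsdhl 0.16. Those lower were Insig2 at −0.33, Tm7sf2 at −0.22 and Srebf1 at −0.12. With the replicate block within the set 6 were called, where 26.8% of all genes were called. Scd1 (0.97), Fads2 (0.55), Elovl5 (0.24) and Nsdhl (0.20) were higher, and Insig2 (−0.32) and Tm7sf2 (−0.26) lower. The differences of Insig2, Fads2, Nsdhl and Tm7sf2 were thus called both ways, while those of Srebf2 (0.016), Stard4 (−0.056) and Fdft1 (0.084) were not called with the block.

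A wider list of 44 genes of sterol, fatty acid and triglyceride metabolism and of SREBP control had 31 genes measured and 24 tested. Of the 24, 7 rose and 6 fell with IL-4 (27.6% of all genes tested rose and 31.9% fell), 5 rose and 2 fell with IL-6 (16.1% and 23.1%), and 8 rose and 4 fell with IL-10 (18.3% and 19.5%). With IL-4 and IL-6, 11 rose and 5 fell (35% and 38.8%), and with IL-4 and IL-10, 11 rose and 6 fell (38.1% and 34%). The medians of the list lay between 0.01 and 0.084, and its counts near the share of all genes are no result about it. The largest increases in it were in Fads3, a further gene of the Fads cluster (0.78, 1.01, 0.93, 1.91 and 1.63 in the same order of groups). Aacs and Acss2, which make acetoacetyl-CoA and acetyl-CoA in the cytosol, rose with IL-6 (0.31 and 0.30), IL-10 (0.33 and 0.33) and the combinations (0.89 and 0.71 with IL-6; 0.75 and 0.68 with IL-10), and were not called with IL-4. Erg28, a scaffold of the sterol demethylation enzymes, rose in all 5 groups, by 0.16 to 0.65.

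Genes of sterol sensing in that list moved in several directions. Mylip, the ligase that degrades the LDL receptor and is a target of the liver X receptors, fell with IL-4 (−0.81, adjusted p = 3.11e-11), rose with IL-4 and IL-6 (0.56, 1.98e-08) and fell with IL-4 and IL-10 (−0.22, 0.0148), with interactions of 1.46 and 0.64. Nr1h3, which encodes the liver X receptor alpha, fell with IL-4 (−0.36, 3.29e-06), with IL-4 and IL-6 (−0.70, 5.41e-12) and with IL-4 and IL-10 (−0.31, 0.000119). Mid1ip1, which aids the carboxylase that makes malonyl-CoA, fell in the same 3 groups (−0.69, −0.52 and −0.39). Mbtps1, the protease that makes the first cut in SREBP, read 0.003, −0.049, −0.039, −0.0052 and −0.011 over the 5 stimulated groups.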

How the data were processed

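RNA was measured on 29 Affymetrix 3' arrays. Each deposited value is an intensity on the log2 scale, 1 per probe set, and the submitters' processing notes name RMA and GCOS 1.4 for what the authors ran. They were used as deposited. Of a gene's probe sets annotated to it alone, the one with the highest mean stood for it. Genes with at least 3 arrays above the median of all values (log2 6.99) were tested. One limma 3.58.1 fit (R 4.3.3) over all 6 groups gave 13 comparisons, and its code was tested on simulated data. The members and lists were chosen with earlier results of these data known. Array values are given for the members with the widest range of group means in each class, those called against their class, and those with an interaction of at least 0.5. Replicate numbers pair the arrays within the 2 inferred sets: deviations from group means correlated in all 39 same-number pairs (r 0.116 to 0.776, median 0.567). The median was −0.235 over 138 pairs of other numbers in the same set. Where same-number pairs correlate, subtracting group means by itself pulls such other pairs below 0. Alternatives covered normalization, filter, probe sets, variance model, block, set and each array left out. Precision is limited by how many arrays each group has.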

Additional observations from a re-analysis of the deposited data

Results flagged for a closer look

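In 4 of 128 combinations of gene and group of 5 or 8 arrays, 1 array stood far from the others of its group, where chance alone gives about 1 in 20. Mvk read 7.54 on unstimulated replicate 3, against 7.71 to 7.79 on the other 7. Pmvk read 8.70 on unstimulated replicate 7, against 8.53 to 8.61. Scd1 read 8.16 on IL-6 replicate 5, against 7.79 to 7.89, and Fads1 read 10.18 on IL-4 with IL-6 replicate 1, against 9.91 to 9.97.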

How the results depend on the processing

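Counts of members called kept within 1.5 times the value reported in 9 of 13 comparisons under every alternative run: each stimulation against unstimulated and each combination against its single cytokines. For IL-10 against IL-6, 6 members became 12 with the replicate number of the labels as a block, 0 with the replicate block within the set or a term for the set, and 2 at an adjusted p under 0.01. For the combinations against each other, 13 became 6 with the block within the set, 4 with a term for the set and 8 at 0.01. For the interaction with IL-6, 14 became 9 when every probe set was tested and 8 at 0.01, and for that with IL-10, 9 became 5 at 0.01. Leaving out 1 array in turn gave 18 to 20 for IL-4, 26 for IL-6, 26 to 28 for IL-10, 29 for IL-4 with IL-6 and 29 to 31 for IL-4 with IL-10 against unstimulated. It gave 28 to 29, 20 to 23, 26 to 28 and 20 to 23 for the combinations against IL-4, IL-6, IL-4 and IL-10, 1 to 6 for IL-10 against IL-6, 10 to 13 for the combinations, and 12 to 15 and 7 to 10 for the interactions.

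Among results called in the reported fit or in the alternative, directions of single members turned as follows, and the cause was not tested. With other probe sets these were Lss with IL-4 (−0.032), IL-4 with IL-6 against IL-6 (−0.094) and interaction with IL-6 (−0.062); Cyp51 (−0.0060) and Srebf2 (−0.16) for IL-4 with IL-6 against IL-6; Srebf2 for IL-10 against IL-6 (−0.087); and Hmgcs1 between the combinations (−0.16). With the block by label number, or the block within the set, Fads2 (0.20) and Srebf2 (0.14) turned with IL-4 and Fads2 (0.24) with IL-6. With the label block alone Scd1 turned with IL-10 (−0.25). With the block within the set Stard4 turned with IL-4 (0.14, also in the first set alone). With that block or a term for the set Elovl5 turned for IL-4 with IL-10 against IL-4 (0.021), Srebf2 for IL-10 against IL-6 (−0.14) and Stard4 between the combinations (−0.056). Of 328 member results, the block within the set moved 17 off the call, 23 onto it and 7 in direction; those changes stand beside the results above, and the block changed no other call. With no filter, 14 calls were lost and none turned. Arrays of 1 set alone could not be fitted for comparisons that span both sets.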
